A study of Mus musculus with 12 samples.

Results

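The cytosolic ribosomal protein genes were followed across RNA-seq libraries of mouse eosinophils from bone marrow and blood. Members were taken by symbol: every protein-coding gene whose name starts with Rpl or Rps and a digit, and Rpsa, Rplp0, Rplp1 and Rplp2, without the S6 kinases and the pseudogenes. This gave 90 of the 53801 genes in the count table, of which 77 encode the core proteins of the ribosome (31 of the small and 46 of the large subunit), 11 are paralogs whose symbols add letters to a core gene, and 2 (Rps19bp1 and Rps23rg1) share the prefix by name alone. The libraries came from 3 Atg5 flox/flox eoCre Il5 tg mice, labelled Atg5-knockout, and 3 eoCre Il5 tg mice, labelled control, and each of the 4 groups of genotype and tissue holds 3 libraries. Cre is inserted in Epx, the eosinophil peroxidase gene, and both genotypes carry it. Both also carry an Il5 transgene driven by Cd3d, which raises eosinophil numbers, so every library comes from mice with excess interleukin-5. The labels give no ages. Eosinophils were enriched by depleting other leukocytes with antibodies, and bone marrow and blood were taken from the same small set of animals, so the tissues are not independent samples. The labels do not tie a replicate number to an animal.

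A ribosome joins a small subunit, which reads the messenger RNA, and a large subunit, which forms the peptide bond. Each ribosomal protein is needed in about equal number, and their messenger RNAs are short, abundant and share a 5′ terminal oligopyrimidine (TOP) tract, a run of C and T at the start of the transcript through which mTOR signalling controls their translation. The work of building ribosomes is done in the nucleolus by a separate set of assembly factors, and it is most active in growing and dividing cells such as the precursors in bone marrow.

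The start sites of 6 members show what these genes share and where they differ. They are the members with large differences between blood and bone marrow, or many counts, whose promoters were in the RefSeq table on GRCm38.p6, the build of the count table, which held 57 of the 77 core genes and 67 of the 90 members. Each sequence runs 5′ to 3′ from 70 bases before to 30 bases after the RefSeq start, and the capitals mark the longest unbroken run of C and T within 30 bases of the start on either side.
Rps27 (chr3:90213619-90213718, - strand): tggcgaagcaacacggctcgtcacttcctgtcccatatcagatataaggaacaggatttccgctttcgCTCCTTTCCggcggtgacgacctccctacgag
Rpl37a (chr1:72711190-72711289, + strand): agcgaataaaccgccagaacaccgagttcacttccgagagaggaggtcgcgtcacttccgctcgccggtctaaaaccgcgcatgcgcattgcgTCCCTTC
Rps9 (chr7:3703971-3704070, + strand): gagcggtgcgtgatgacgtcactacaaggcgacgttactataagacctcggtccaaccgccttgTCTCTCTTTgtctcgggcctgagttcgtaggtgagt
Rps2 (chr17:24719993-24720092, + strand): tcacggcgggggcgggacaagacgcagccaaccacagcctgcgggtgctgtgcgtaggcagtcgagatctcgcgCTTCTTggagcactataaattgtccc
Rpl12 (chr2:32961642-32961741, + strand): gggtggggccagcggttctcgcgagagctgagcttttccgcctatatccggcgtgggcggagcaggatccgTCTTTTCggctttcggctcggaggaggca
Rpl3l (chr17:24727756-24727855, + strand): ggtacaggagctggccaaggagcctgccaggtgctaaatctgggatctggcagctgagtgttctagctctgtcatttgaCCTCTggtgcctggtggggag
The runs of Rps27 and Rps9 are 9 bases long and span the start. The Rps27 run begins at base -2 and lies mostly within the transcript, the arrangement known for TOP genes. The Rps9 run begins at base -6, so most of it lies before the RefSeq start. The run of Rpl12 is 7 bases, that of Rps2 is 6 bases, and that of Rpl3l, a paralog known from heart and skeletal muscle, is 5 bases. That of Rpl37a begins at base 24 from the start and meets the edge of the searched window, so its 7 bases are a lower limit. Its printed stretch ends at 72711289, and the count table starts this gene at 72711290, so the RefSeq start used lies upstream of the gene as counted. A run of at least 8 was found on the gene's own strand in 29 of the 57 core promoters (50.9%), against 22.8% of the 27025 gene promoters in the table and 26.1% of the promoters of mitochondrial ribosomal proteins. On the other strand, the same search found a run in 14% of core promoters and in 25.2% of all. The letters CTTCCG, the core of the site for ETS factors, stood on either strand of the 300-base promoter in 70.2% of core genes and 17.2% of all genes. TATAAA stood on either strand in 8.77% of core genes and 14.2% of all.

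Libraries held from 18885052 to 30270166 counts. The eosinophil marker list, which includes Epx and Prg2, took 8.04 to 10.2% of counts in bone marrow and 1.8 to 4.05% in blood, and all 10 of its genes had counts in every library. Red cell genes took 14.6% of the counts of blood control replicate 1 and at most 1.43% elsewhere. Several results that use that library are given with and without it. The cycling cell list took 0.305 to 0.422% of counts in bone marrow and 0.0263 to 0.0418% in blood. Atg5 measured 42.5 ± 2.62 CPM (counts per 1000000 after scaling; SD, n = 3) in control and 31.9 ± 1.74 in knockout bone marrow, and 48.1 ± 9.62 and 47.2 ± 9.12 in blood. These counts cover the whole gene, so exons outside the deleted part are included and the blood values do not check the labels. Arg2, named by the study as raised, separated the genotypes in both tissues, with 1.55 ± 0.0208 and 27.5 ± 1.79 CPM in bone marrow and 1.77 ± 0.578 and 71.4 ± 19.3 in blood.

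The members together took a similar share of all counts in each group. In bone marrow the share was 6.30, 7.15 and 6.43% in the control libraries and 7.31, 6.61 and 6.44% in the knockout libraries. In blood it was 4.61, 6.69 and 7.12% in control and 7.27, 7.77 and 6.70% in knockout. The lowest value, 4.61%, belonged to the library with the red cell genes, and with those genes left out of the total the control blood mean moved from 6.14 ± 1.35 to 6.45 ± 0.947%. All group ranges overlapped. The 11 paralogs took 0.0365 to 0.0467% of counts in bone marrow and 0.0208 to 0.0309% in blood, so nearly all of the share lay on the core genes.

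**Figure D1:**
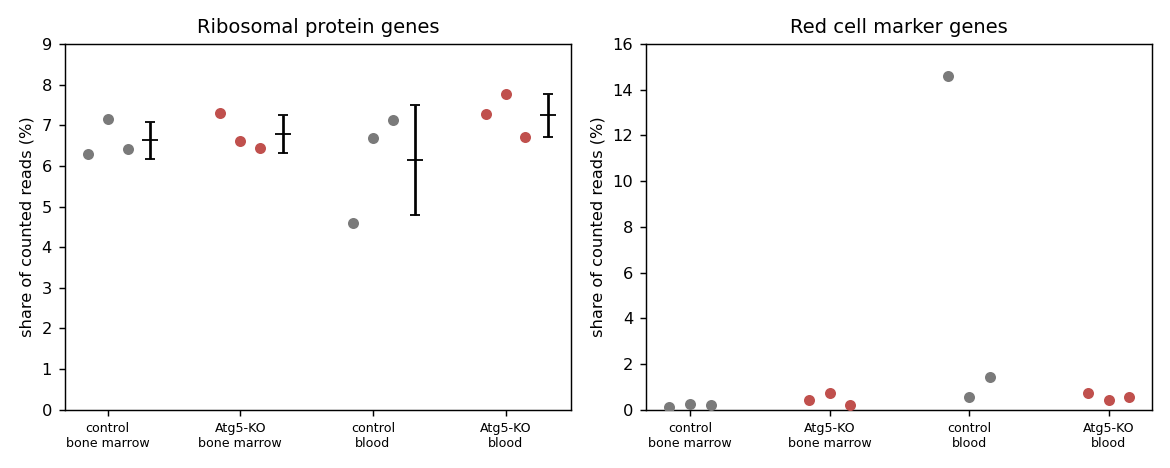
Share of all counted reads (%) on the 90 ribosomal protein genes (left) and on the red cell marker genes (right) in each of the 12 libraries, with replicates 1 to 3 from left to right. Bars on the left are mean and SD of 3 libraries. The control blood library with 14.6% red cell counts is the one with 4.61% on ribosomal protein genes.

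Among the members, level per kilobase of the table's exon length ran over several orders of magnitude. The highest were Rplp1, an acidic protein of the stalk that recruits elongation factors, at 3494 CPM per kilobase, then Rps29 at 2398 and Rps15 at 2073, both of the small subunit. The core median was 404 CPM per kilobase. The lowest were Rpl27rt at 0.0448, Rps23rg1 at 0.00199 and Rpl10l, a testis paralog of Rpl10, which had 0 counts in 298195480; the limit that a count of 0 allows (3 counts) is 0.0101 CPM. The exon length in the table joins all annotated transcripts, so genes with long rare transcripts read low on this scale.

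The core gene of lowest count was Rpl24, with 99 counts in 12 libraries. Of its exon bases, 47.0% lie in Gm28037 as well, and such reads are left out when no multi-overlap option is set. Rpl23a shares 62.3% of its exon bases with other genes, mainly Tlcd1, and Rpl13a shares 35.4%, mainly with Gm45713. Rpl35 shares more, 66.2%, mainly with Wdr38, and had 107600 counts. The part of these overlaps in the counts was not tested. Many core genes also share sequence with other genes' transcripts. Of the 77 core genes, 49 had at least 50% of their 100-base windows (over the coding sequence and 50 bases to either side) in another gene's transcript, and 28 had fewer. Levels of genes that share sequence are uncertain.

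The order of the 77 core genes by level was close to fixed within a tissue. Spearman's rho between libraries of the same group ran from 0.963 to 0.992 and between genotypes of the same tissue from 0.943 to 0.992. Between bone marrow and blood it ran from 0.795 to 0.936 over 36 pairs. These are descriptions across genes, which share library and length.

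The knockout comparisons ask whether loss of Atg5, which is needed to form autophagosomes, changed ribosomal protein messenger RNA. In bone marrow 0 of the 86 members tested passed an adjusted p of 0.05 (edgeR quasi-likelihood test, Benjamini-Hochberg over 13781 genes), where 0.348% of all genes did. The median log2 fold change of the members was -0.02, against 0.00 for all genes tested, with 37 members (43%) above 0 beside 50.6% of all genes. Leaving out single libraries moved that median between -0.08 and 0.07. Past a log2 fold change of 2 there were 0 members and 0.0943% of all genes. At an unadjusted p under 0.05, without adjustment for the number of genes, 2 members were higher (4.36% of all genes) and 2 were lower (5.31%), in all 9.67% of the genes tested. DESeq2 and limma-voom also called 0, with 7 and 3 members at an unadjusted p under 0.05.

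The member of lowest p in bone marrow was Rpl23a, a large subunit protein near the peptide exit tunnel. It measured 16.5, 27.2 and 19.3 CPM in control and 11.6, 10.7 and 20.2 in knockout bone marrow, and the groups overlapped. Its log2 fold change was -0.60 ± 0.24 (SE; adjusted p = 0.451). With counts of its named pseudogenes added it was 0.08, so its direction turned with the counting of near-identical copies.

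Rps2, a small subunit protein at the messenger RNA entry channel, measured 643, 644 and 567 CPM in control and 768, 810 and 673 in knockout bone marrow. Every knockout library lay above every control library, and its log2 difference of 0.25 ± 0.11 had an adjusted p of 0.498. In all, 7 members (Rpl3, Rpl4, Rpl10, Rpl12, Rps2, Rps6 and Rps7) lay wholly above the control range and 0 lay wholly below, where 8.69% and 5.67% of all genes did (14.4% in either direction). In the same comparison all 11 red cell genes tested lay above 0 (median 1.33, 1 called) and all 20 cycling cell genes did too (median 0.20, 0 called), and their part in the members' values was not tested.

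In blood 0 of 86 members passed the test, where 0.0371% of all genes did, and 0 passed with DESeq2 or limma-voom. Without adjustment, 2 members had a p under 0.05, both higher, beside 2.58% of all genes (1.1% higher and 1.48% lower), and DESeq2 and limma-voom each had 3 members at that level. The members' median log2 fold change was 0.12, with 67 of 86 above 0, against a median of 0.01 and 51.1% above 0 for all genes. The median turned without 1 library: without blood control replicate 1 it was -0.02, with 37 of 87 members above 0. With replicate number as a block in the edgeR test, 8 members had an unadjusted p under 0.05. In that fit 72 of 86 lay above 0, and 0 were called.

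The lowest p in blood belonged to Rpl22l1, the paralog that replaces Rpl22 in the large subunit. It measured 103, 77.4 and 75.8 CPM in control and 144, 118 and 110 in knockout blood, without overlap, and its log2 difference was 0.55 ± 0.20 (adjusted p = 1). Rps9, a small subunit protein at the entry channel and the member with most counts, measured 1814, 3029 and 3255 CPM in control and 3457, 5081 and 4365 in knockout blood. Its groups did not overlap either, and its difference was 0.69 ± 0.27 (adjusted p = 1). In all, 4 members (Rpl22l1, Rpl36, Rps9 and Rps27) lay wholly higher in knockout blood and 0 wholly lower, where 3.53% and 4.05% of all genes did (7.58% in either direction). All 9 red cell and all 12 platelet genes tested lay lower in knockout blood (medians -3.47 and -2.26, 0 called), and without blood control replicate 1 the red cell median was -1.02. All 10 B cell and 12 T cell genes lay higher (medians 0.86 and 0.57, 0 called), with medians of 3.72 and 3.05 without that library. Of 10 eosinophil markers 9 lay lower (median -0.33, 0 called), and all 10 did without that library (median -0.47). Their part in the members' values was not tested.

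The test of whether the knockout effect differed between blood and bone marrow called 0 of 87 members and 0% of 14712 genes. At an unadjusted p under 0.05 it had 2 members, Rps27 (0.65 ± 0.28, adjusted p = 0.942) and Rpl22l1 (0.61 ± 0.28, adjusted p = 0.942), beside 5.03% of all genes (1.86% higher). DESeq2 and limma-voom called 0 as well, with 2 members each at an unadjusted p under 0.05. The members' median difference was 0.07, with 52 of 87 above 0. Without blood control replicate 1 it turned to -0.07, with 28 of 87 above 0, and 0 members were called.

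**Figure D2:**
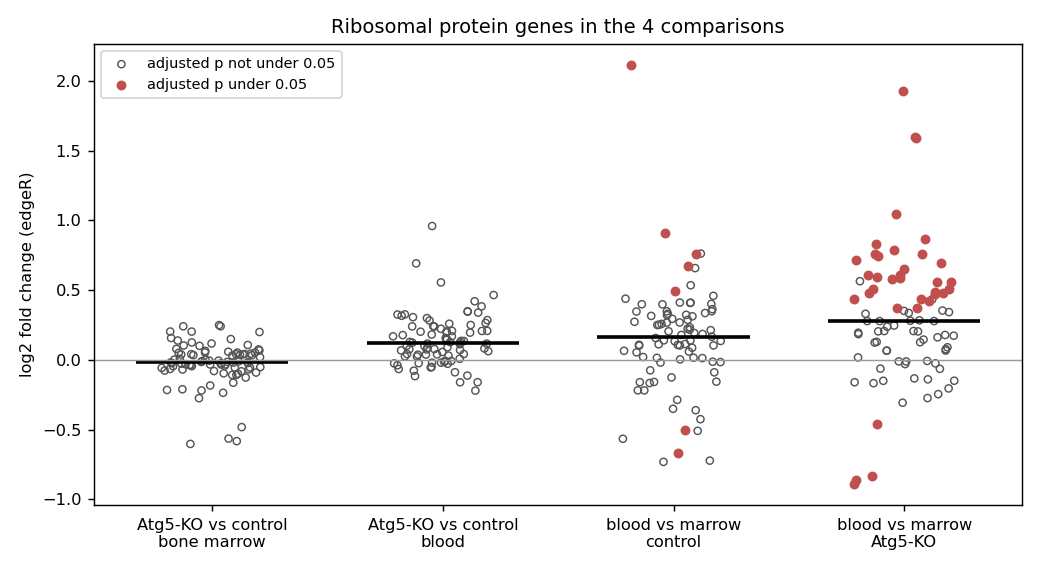
Log2 fold change of each tested ribosomal protein gene in the 4 comparisons. Each point is a gene, filled where its adjusted p (edgeR) was under 0.05, and the bar is the median. No point is filled in the 2 knockout comparisons, and most filled points lie above 0 in the tissue comparison of knockout mice.

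Blood against bone marrow asks how the genes differ between the site where eosinophils form and the circulation. In control mice 5 members rose and 2 fell of 86 tested, a share of 8.14% where 34.2% of all genes passed the test (16.2% higher and 18% lower). In knockout mice 31 rose and 4 fell of 85 tested, a share of 41.2% where 47.6% of all genes passed (23.5% higher and 24.1% lower). In the small subunit 13 of 31 genes rose and 1 fell, and in the large subunit 16 of 45 rose and 2 fell. Blood lay wholly above bone marrow for 9 members and wholly below for 7 in control mice, where 50.1% of all genes did not overlap, and for 41 and 9 in knockout mice, where 60% did not. Before adjustment, 8 members were higher and 5 lower with a p under 0.05 in control mice, beside 44.9% of all genes, and 37 and 5 in knockout mice, beside 54.5%. Of the members called, 6 were called in both genotypes with the same direction, Rpl3, Rpl3l, Rpl17, Rps2 and Rps27 among them, of 7 in control and 35 in knockout mice. Members past a log2 fold change of 2 numbered 1 (Rpl3l) in control and 0 in knockout mice, where 9.58% and 11.4% of all genes did so.

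The control count moved with single libraries. Without blood control replicate 1, 33 members rose and 4 fell, where 42% of all genes were called. Without bone marrow control replicates 1, 2 or 3 the count of members called was 2, 3 or 1, where 21.4, 21 and 18.5% of all genes were called. In knockout mice it was 20 and 22 without bone marrow replicates 2 and 3, and 22 without blood replicate 2, where 32, 35.8 and 41.8% of all genes were called. The interaction test given above, which is also the test of a difference in tissue effect between genotypes, called 0 members. In these bulk samples, fewer cells of a type and less RNA per cell cannot be told apart.

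Most members that passed the test moved up, while the all-gene medians were near 0. The median log2 difference of the members was 0.16 in control mice (64 of 86 above 0) and 0.28 in knockout mice (64 of 85 above 0), against 0.00 and -0.01 for all genes. Without blood control replicate 1 the control median was 0.28, with 72 of 86 above 0, and without blood control replicate 3 it was 0.05, with 52 above 0. Scaling by library size alone moved the all-gene medians to -0.31 and -0.24. On that scale the members' medians were -0.15, the opposite direction, and 0.04, and 2 members rose and 11 fell in control mice and 18 rose and 13 fell in knockout mice. Relative to the median of all genes they lay 0.165 and 0.282 higher on that scale, beside 0.164 and 0.288 with TMM scaling. Markers of several cell types moved with tissue too. All 20 cycling cell genes fell in blood of both genotypes, and of 10 eosinophil markers 6 fell and 2 rose. Of the T cell genes tested, 4 of 6 rose in control and 11 of 11 in knockout mice, and of the B cell genes 3 of 7 and 8 of 10. Of 12 neutrophil genes 6 fell in control mice, and 8 fell and 2 rose in knockout mice. Platelet genes rose for 10 of 12 in control mice, and 3 rose and 1 fell of 11 in knockout mice. Of 11 red cell genes 6 rose and 1 fell in control and 5 fell in knockout mice, and of 13 monocyte and macrophage genes 6 rose and 1 fell, and 5 rose and 3 fell. The summed T cell share was at most 0.0388% of counts in any library. Genes of the mitochondrial genome took 0.806 to 0.961% of counts in bone marrow and 1.13 to 1.73% in blood. The part of these in the members' differences was not tested.

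Rps27, a zinc-binding protein of the small subunit encoded on chr3:90212522-90213651 (GRCm38, - strand), had the largest rise of a core gene in control mice. It measured 912, 1223 and 961 CPM in control bone marrow and 1551, 1959 and 2355 in control blood. In knockout mice it measured 1013, 673 and 999 CPM in bone marrow and 2407, 2698 and 2876 in blood. Blood lay above bone marrow in every library of both genotypes. The log2 difference was 0.91 ± 0.21 (adjusted p = 0.0111) in control and 1.59 ± 0.18 (adjusted p = 0.000183) in knockout mice. In control mice it no longer passed when bone marrow replicate 1 or 3 was left out.

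Of its 100-base windows, 92.9% stand in other genes' transcripts. Rps27rt, a retrotransposed copy that shares all of its windows, measured 5.14 to 10.1 CPM in control bone marrow and 8.05 to 12.4 in control blood. Its difference in knockout mice was 1.05 ± 0.24 (adjusted p = 0.00616), and reads of these loci cannot be fully separated.

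Rpl37a, a zinc-binding protein of the large subunit, measured 709, 658 and 678 CPM in control bone marrow and 767, 1105 and 1416 in control blood. Its difference of 0.67 ± 0.23 passed in control mice (adjusted p = 0.0467). In knockout blood it measured 740, 1418 and 749 CPM against 877, 582 and 530 in bone marrow, with overlap, and its difference of 0.56 ± 0.28 had an adjusted p of 0.131. Rpl17, which lines the exit tunnel, passed in both genotypes, at 0.49 ± 0.17 (adjusted p = 0.0496) and 0.56 ± 0.13 (adjusted p = 0.00641). In control mice, the calls of Rpl37a and Rpl17 were lost on library size alone, under the replicate block and without any 1 of the libraries other than blood replicate 1. That of Rpl37a was also lost in the fit of 12 libraries, and that of Rpl17 with pseudogene counts added, with no filter and with TMM factors made without the members.

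Rps9 measured 2531, 2207 and 2403 CPM in knockout bone marrow, below each of its knockout blood libraries given above, and its log2 difference was 0.87 ± 0.17 (adjusted p = 0.00277). In control bone marrow it measured 1915, 2237 and 1938 CPM, which overlapped with control blood, and its difference of 0.40 ± 0.24 did not pass (adjusted p = 0.225).

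In knockout mice Rpl23a showed the largest rise of a core gene. It measured 11.6, 10.7 and 20.2 CPM in bone marrow and 49.9, 46.4 and 30.1 in blood, a log2 difference of 1.60 ± 0.28 (adjusted p = 0.00174). In control mice the difference was 0.76 ± 0.29 (adjusted p = 0.0694), and the groups overlapped. Most of its exon bases are shared with other genes, as given above.

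Rps2 and Rpl3 went the other way. Rps2 measured 643, 644 and 567 CPM in control bone marrow and 426, 449 and 442 in control blood. In knockout mice it measured 768, 810 and 673 CPM in bone marrow and 487, 323 and 389 in blood. Every blood library lay below every bone marrow library of its genotype, with log2 differences of -0.51 ± 0.15 (adjusted p = 0.0287) and -0.89 ± 0.17 (adjusted p = 0.00255). The control call was lost when any bone marrow replicate, or blood replicate 2 or 3, was left out, and with no filter and under the replicate block.

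Rpl3, a large subunit protein that reaches the peptidyl transferase centre, measured 839, 854 and 870 CPM in control bone marrow and 490, 569 and 571 in control blood. In knockout mice it measured 1012, 959 and 882 CPM in bone marrow and 642, 496 and 413 in blood. The log2 differences were -0.67 ± 0.15 (adjusted p = 0.0104) and -0.86 ± 0.17 (adjusted p = 0.00336), again without overlap. In control mice the call was lost without bone marrow replicate 3. Rpl12, at the base of the stalk, fell in knockout mice by 0.46 ± 0.16 on the log2 scale (adjusted p = 0.0390) and differed by -0.16 ± 0.16 in control mice (adjusted p = 0.464). The call of Rpl12 was lost without bone marrow replicate 1 or 2 or blood replicate 2 or 3.

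**Figure D3:**
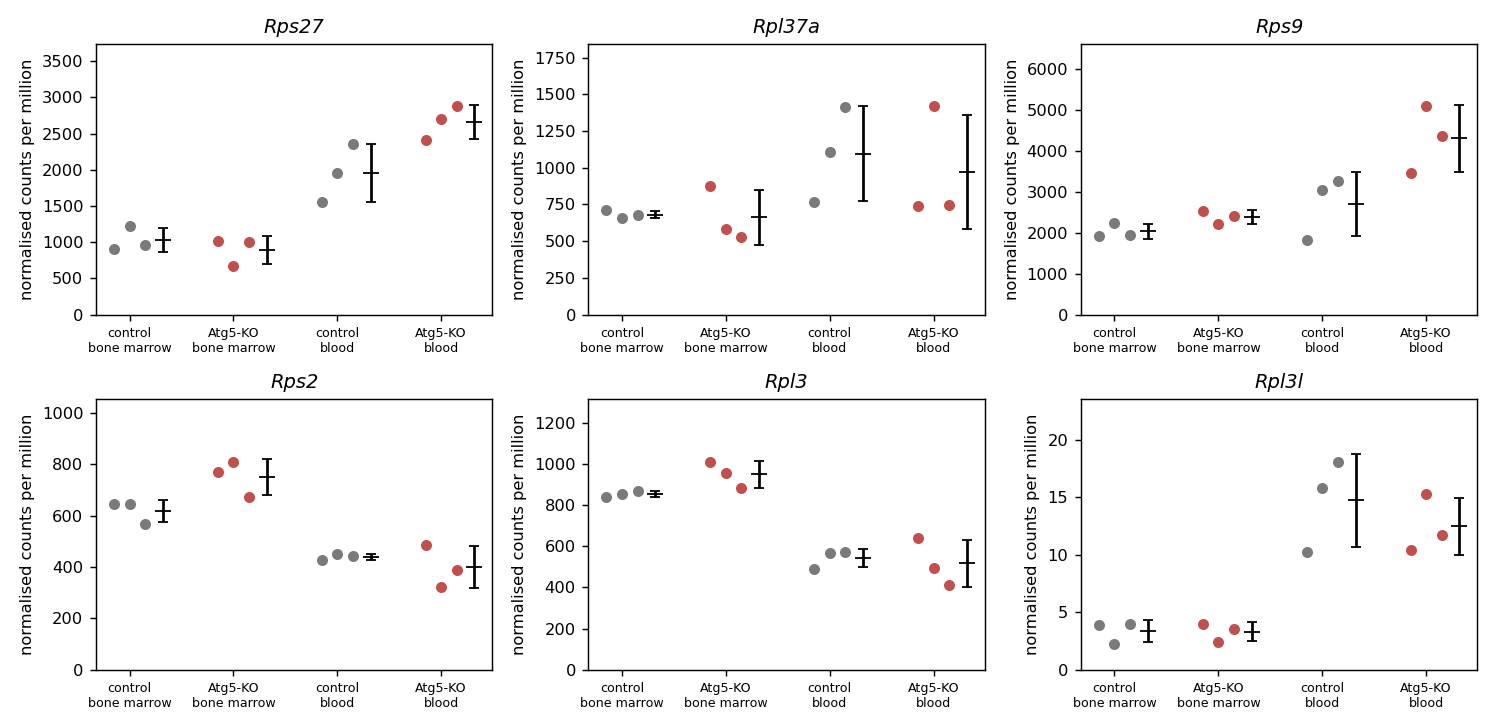
CPM of 6 ribosomal protein genes in each library, with mean and SD (n = 3). Rps27 and Rpl3l lie higher in every blood library than in every bone marrow library of the same genotype, Rps2 and Rpl3 lie lower, Rpl37a overlaps between tissues in knockout mice, and Rps9 overlaps in control mice.

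Of the stalk proteins, Rplp0, the base, measured 1446 to 1784 CPM in bone marrow and 1594 to 2085 in blood, and its differences of 0.23 ± 0.17 and 0.15 ± 0.13 did not pass (adjusted p = 0.329 and 0.372). Rplp1 and Rplp2, which bind it, rose in knockout mice, by 0.48 ± 0.15 (adjusted p = 0.0240) and 0.59 ± 0.16 (adjusted p = 0.0161). In control mice they measured differences of 0.10 ± 0.23 and 0.29 ± 0.25, not past the test.

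Several members known for roles beyond the ribosome did not pass in either genotype. Rpl5 and Rpl11, which bind Mdm2 when ribosome assembly is disturbed, differed by -0.02 ± 0.18 and 0.19 ± 0.21 in control mice and by 0.20 ± 0.13 and 0.17 ± 0.12 in knockout mice. Rps19, mutated in Diamond-Blackfan anaemia, differed by 0.11 ± 0.18 and 0.24 ± 0.15. Rps6, the substrate of the S6 kinases, differed by 0.01 ± 0.18 and -0.27 ± 0.13 (adjusted p = 0.958 and 0.101). Rpsa, also known as the laminin receptor, differed by -0.22 ± 0.21 and -0.15 ± 0.13, and Rpl13a, part of an interferon-gated silencing complex, by -0.43 ± 0.22 and -0.17 ± 0.17. Rps27a, which is made as a fusion with ubiquitin, rose in knockout mice by 0.72 ± 0.18 (adjusted p = 0.0111) and measured 0.66 ± 0.29 in control mice (adjusted p = 0.115).

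The counts on small over large subunit genes were 0.980 to 1.04 in bone marrow, 0.984 to 1.07 in control blood and 1.10 to 1.15 in knockout blood. The knockout blood libraries lay above all others. Without Rps9 and Rps27, chosen after their values were seen, the ratio was 0.883 to 0.936 in bone marrow, 0.857 to 0.928 in control blood and 0.916 to 0.945 in knockout blood, and the ranges overlapped.

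Rpl3l, the paralog of Rpl3, had the largest difference among the paralogs. It measured 3.90, 2.24 and 3.98 CPM in control bone marrow and 10.3, 15.8 and 18.1 in control blood. In knockout mice it measured 4.02, 2.40 and 3.54 CPM in bone marrow and 10.5, 15.3 and 11.8 in blood. All blood libraries were higher, and the log2 differences were 2.11 ± 0.33 (adjusted p = 0.00163) and 1.93 ± 0.27 (adjusted p = 0.000540), while Rpl3 fell. Of the counts on the pair, Rpl3l took 0.393 ± 0.114% in control bone marrow and 2.61 ± 0.521% in control blood, and 0.348 ± 0.0857% and 2.45 ± 0.743% in knockout mice. It shares 0.9% of its windows with other genes.

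Rpl7l1, a nucleolar relative of Rpl7, measured 117, 114 and 111 CPM in control bone marrow and 43.8, 70.9 and 93.5 in control blood. Its log2 difference was -0.73 ± 0.25 (adjusted p = 0.0504) in control and -0.83 ± 0.18 (adjusted p = 0.00461) in knockout mice. It took 7.92 ± 0.247% of the pair's counts in control bone marrow and 4.04 ± 0.555% in control blood. Rps27l, a p53 target that resembles Rps27, took 8.51 ± 0.112% of that pair's counts in control bone marrow and 3.38 ± 0.230% in control blood, and 9.64 ± 2.2% and 2.82 ± 0.0997% in knockout mice. Its own differences of -0.51 ± 0.18 and -0.25 ± 0.13 did not pass (adjusted p = 0.0594 and 0.162).

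Rpl22l1 took 25.3 ± 3.16% of the pair with Rpl22 in control bone marrow and 17.8 ± 5.28% in control blood, where blood replicate 1 was at 23.8% and the others at 15.5 and 14.1%. In knockout mice it took 24.5 ± 1.09% and 20 ± 4.02%, with overlap. Its differences were -0.57 ± 0.22 (adjusted p = 0.0747) and 0.08 ± 0.15 (adjusted p = 0.707). Rpl36al, Rpl35rt and Rps4l stayed at 4.03 to 11.3 CPM and passed in no comparison. Rps4l took 0.601 ± 0.0731% of the pair with Rps4x in knockout bone marrow and 0.601 ± 0.104% in knockout blood. Rpl39l, a testis paralog, measured at most 0.928 CPM, and Rpl27rt had 25 counts in 12 libraries. Rps19bp1, which is not a ribosomal protein, measured 9.33 to 18.2 CPM and passed in no comparison.

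The rises among core genes went with short coding sequences, a pattern noticed in these data and given as a description. The 77 core genes have coding lengths from 138 bases (Rpl41) to 1257 bases (Rpl4). In knockout mice the median log2 difference between blood and bone marrow was 0.47 for the 35 genes of at most 450 bases, of which 20 rose and 0 fell. It was -0.06 for the 23 genes over 600 bases, of which 0 rose and 2 fell (Rps2 and Rpl3). Of all genes tested, 23.5% rose and 24.1% fell. Among protein-coding genes outside the family in the same length range, 215 rose and 162 fell of 735 short ones. Of 3771 long ones, 904 rose and 1018 fell. In control mice the core medians were 0.29 and 0.01. Spearman's rho between coding length and log2 difference was -0.569 over 76 core genes in knockout mice and -0.446 in control mice. The points share libraries and scaling, and genes are not independent replicates.

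The ratio of counts on short to counts on long core genes does not depend on scaling between libraries. It was 1.11, 1.25 and 1.18 in control bone marrow and 1.15, 1.01 and 1.11 in knockout bone marrow. In blood it was 1.35, 1.43 and 1.52 in control and 1.41, 1.61 and 1.45 in knockout mice. Every blood library lay above every bone marrow library, blood control replicate 1 included. Over the 28 core genes with fewer than 50% of windows shared, the ratio was 1.26 to 1.47 in control bone marrow and 1.39 to 1.63 in control blood, which overlapped, and 1.20 to 1.34 and 1.47 to 1.75 in knockout mice, which did not.

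Relative to long genes, short genes outside the family also lay higher in blood. For protein-coding genes outside the family with coding lengths in the same range, red cell genes left out, the mean ratio was 0.365 ± 0.036 in control bone marrow and 0.434 ± 0.0303 in control blood, and 0.336 ± 0.0132 and 0.448 ± 0.0219 in knockout mice. No blood library (0.399 to 0.473) reached down to a bone marrow library (0.321 to 0.397). These are ratios of summed counts, in which genes with many counts weigh most. The median log2 difference in knockout mice was 0.13 for 735 such genes of at most 450 bases and -0.06 for 3771 over 600 bases, with a rho of -0.0675 over 5253 genes. For the 77 tested mitochondrial ribosomal protein genes the rho was -0.314. Their medians were -0.14 for 23 short genes, of which 2 rose and 8 fell, and -0.45 for 37 long genes, of which 0 rose and 19 fell. Both medians lay below 0. In control mice the rho was -0.0477 for the other genes and -0.279 for the mitochondrial ones. There the median of the other genes was 0.06 for 732 short ones, of which 116 rose and 133 fell. It was -0.10 for 3732 long ones, of which 613 rose and 806 fell. Between knockout and control bone marrow, the rho of the core genes had the opposite sign, 0.531, with medians of -0.03 (short) and 0.05 (long). The sign was also positive there for the mitochondrial ribosomal protein genes (0.382) and for 5226 other genes (0.106). Leaving out single libraries moved the core value between 0.321 and 0.614. For knockout against control blood the core rho was -0.304, with medians of 0.16 and 0.10. Without single libraries it ran from -0.409 to -0.0914. The rho was 0.00947 for the mitochondrial and 0.00183 for the other genes. In both knockout comparisons 0 members passed the test.

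**Figure D4:**
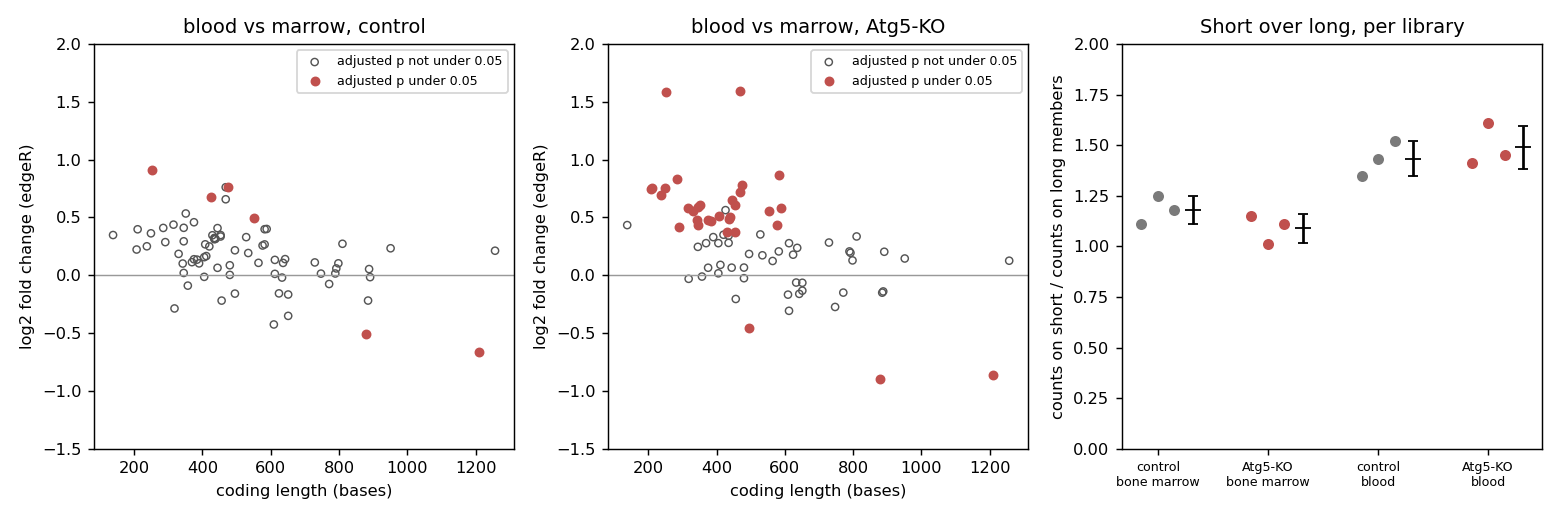
Log2 fold change between blood and bone marrow against coding length for 76 core ribosomal protein genes in control (left) and knockout mice (middle), filled where the adjusted p was under 0.05, and the ratio of counts on core genes of at most 450 bases to counts on those over 600 bases in each library with mean and SD (right). Short genes lie higher in blood, and the 6 blood libraries (1.35 to 1.61) lie above the 6 bone marrow libraries (1.01 to 1.25).

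Core genes with a TOP-like run had lower medians than those without in the tissue comparisons, and the difference was not tested. The median log2 difference in knockout mice was 0.20 for 29 core genes with a run of at least 8 and 0.35 for 27 without, and in control mice 0.17 and 0.22.

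The other genes of translation give the setting. Of 71 ribosome biogenesis genes tested, 1 rose and 32 fell in blood of control mice (median -0.57), and 3 rose and 38 fell in knockout mice (median -0.49). The share called was 46.5 and 57.7%, where 34.2 and 47.6% of all genes were called (18 and 24.1% lower). Dkc1, which modifies ribosomal RNA, fell most, by 2.25 ± 0.39 on the log2 scale (adjusted p = 0.00277) and by 1.91 ± 0.17 (adjusted p = 4.1e-05). Of 77 mitochondrial ribosomal protein genes, 1 rose and 26 fell in control mice (median -0.37), and 3 rose and 35 fell in knockout mice (median -0.41), with Mrps22 lowest at -2.16 ± 0.27 (adjusted p = 0.000536) and -1.81 ± 0.21 (adjusted p = 0.000169). Of the mitochondrial ribosomal protein genes 35.1 and 49.4% were called, near the shares of all genes. Without blood control replicate 1 the control counts were 1 and 38 for biogenesis and 5 and 26 for mitochondrial ribosomal proteins. These were 54.9 and 40.3% of the genes tested, where 42% of all genes were called.

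Initiation factors and the elongation and TOP genes were split. Of 35 initiation factors, 2 rose and 8 fell in control mice and 3 rose and 11 fell in knockout mice. The share called was 28.6 and 40%, below the 34.2 and 47.6% of all genes. Eif4e, which binds the messenger RNA cap, fell by 1.63 ± 0.16 (adjusted p = 0.000134) and by 1.49 ± 0.15 (adjusted p = 8.13e-05) on the log2 scale, while Eif1, which checks the start codon, rose by 1.07 ± 0.19 (adjusted p = 0.00283) and 1.20 ± 0.14 (adjusted p = 0.000216). Of 19 elongation and other TOP genes, 3 rose and 2 fell in control mice and 5 rose and 3 fell in knockout mice. Here the share called was 26.3 and 42.1%, also below that of all genes. Eef1g, a subunit of the elongation factor 1 complex, fell by 1.06 ± 0.14 (adjusted p = 0.000884) and by 0.87 ± 0.16 (adjusted p = 0.00244). Without blood control replicate 1, 6 initiation factors rose and 10 fell, and 7 elongation and TOP genes rose and 4 fell. These were 45.7 and 57.9% of the genes tested, where 42% of all genes were called.

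Among 30 regulators of growth tested (Myc, mTOR and stress kinase genes), 5 rose and 2 fell in control mice and 9 rose and 3 fell in knockout mice. The share called was 23.3 and 40%, below the 34.2 and 47.6% of all genes. Ddit4, an inhibitor of mTOR complex 1, rose most, by 3.17 ± 0.34 (adjusted p = 0.000247) and 3.00 ± 0.32 (adjusted p = 0.000125). Mlst8, a subunit of the mTOR complexes, fell by 1.43 ± 0.24 (adjusted p = 0.00258) and by 1.65 ± 0.24 (adjusted p = 0.000578). Of 19 ribosome quality control genes, 1 rose and 3 fell in control mice and 2 rose and 3 fell in knockout mice. Their share called, 21.1 and 26.3%, was below that of all genes too. Without blood control replicate 1, 7 growth regulators rose and 2 fell, and 3 quality control genes rose and 3 fell. These were 30 and 31.6% of the genes tested, where 42% of all genes were called. In the knockout comparisons 0 genes of these 6 lists passed the test in either tissue.

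**Figure D5:**
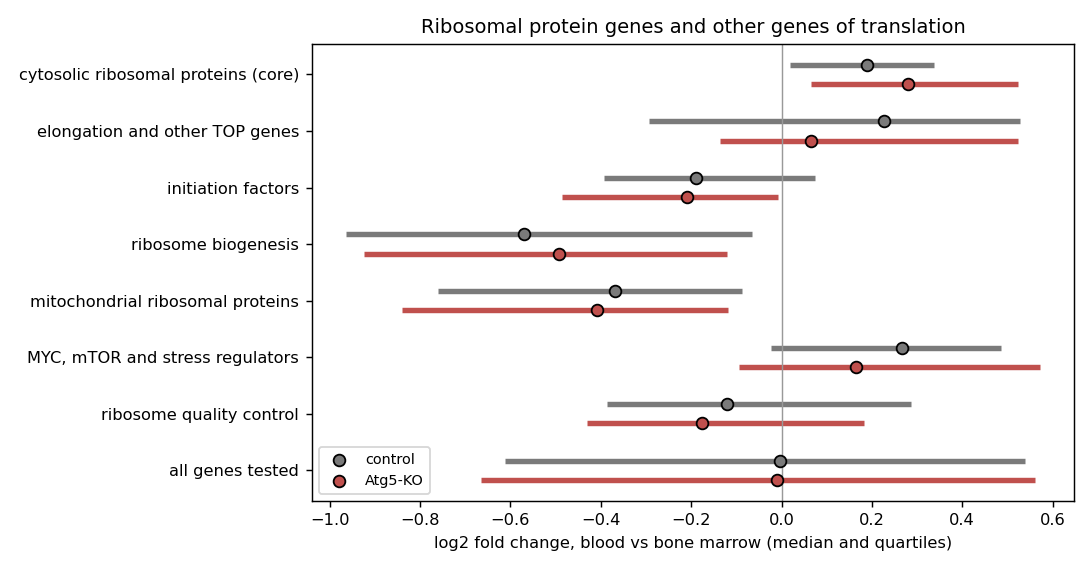
Median (point) and quartiles (bar) of the log2 fold change between blood and bone marrow for the core ribosomal protein genes, 6 other lists and all genes tested, in control and knockout mice. The ribosomal protein genes lie above 0 (0.19 and 0.28), while ribosome biogenesis (-0.57 and -0.49) and mitochondrial ribosomal protein genes (-0.37 and -0.41) lie below.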

How the data were processed

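RNA-seq counts of 12 eosinophil libraries (4 groups of 3) were analysed as deposited. Per the methods, stranded mRNA libraries were sequenced single-end, aligned with HISAT2 2.2.1 and counted by the authors with featureCounts 2.0.1. The deposited values are raw counts per gene. The table's header names Ensembl 92 on GRCm38. It names no option for strand or for reads that map or overlap more than once, so such reads are absent. How far their absence changed the counts of ribosomal protein genes with copies was not tested. The methods name a GRCm39 annotation. The header also carries the paired-end option (-p), while the methods name single-end reads. Coordinates are those of the table. Symbols (49674 matched) and the 100-base windows searched for shared sequence came from GENCODE M39. Levels (CPM) used TMM factors over 12 libraries.

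Genes kept by edgeR's filter (minimum count 10, total 15) were fitted per comparison on 6 libraries, or on 12 for the interaction, with edgeR 4.0.16 (quasi-likelihood, TMM, prior count 0.125, Benjamini-Hochberg over all genes tested, two-sided) in R 4.3.3. The threshold for a call was an adjusted p of 0.05. The script was checked on simulated counts. Alternatives were DESeq2 1.42.0, limma-voom (limma 3.58.1), other scalings and filters, pseudogene counts (307 pseudogenes named after members), a replicate block and leaving out each library. With 3 libraries a group and total counts from 18885052 to 30270166, p-values measure the spread between these libraries. Floors cover counting error only.

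Replicate numbers come from the titles. In blood, same-numbered knockout and control libraries deviated together (r = 0.621, 0.392 and 0.388). The block left 0 members called there. Named genes were the 4 largest rises and 4 largest falls among called members of each comparison (or those called and the lowest p), the paralogs, 10 members with other known roles, the 3 highest and 3 lowest per length, members without a count, and the largest called change each way in each pathway list. Rps9 and Rpl37a promoters were added for display. Members and lists were chosen with earlier results of these data known. Columns of all 12 libraries were used. The values of 1 member that the rule names are not reported here.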

Additional observations from a re-analysis of the deposited data

How the results depend on the processing

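In bone marrow, the knockout comparison called 1 member without a filter (Rpl23a) and 0 to 2 members when a library was left out (2, Rpl36al and Rps27rt, without control replicate 1), against 0 as reported. In blood and for the interaction every alternative run called 0. Between tissues in control mice, 7 members were called as reported, 13 on library size alone (2 higher and 11 lower), 11 with DESeq2, 11 with all 12 libraries in 1 fit, and 1 to 37 when a library was left out. The high end was without blood control replicate 1. In knockout mice, 35 were called as reported and 20 to 46 when a library was left out. On library size alone it was 31, of which 18 were higher and 13 lower. The median of the members on library size alone was -0.148 in control and 0.0415 in knockout mice.

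The replicate block called 6 members (3 higher and 3 lower) in the tissue comparison of control mice and 27 in that of knockout mice, and 0 in both knockout comparisons. Outside blood the same-numbered libraries did not all deviate together (r from -0.221 to 0.177). With 3 libraries a group, such values cannot settle whether equal numbers share an animal or a preparation. Of the named members' log2 differences, Rpl23a in bone marrow reversed, to 0.0794, with pseudogene counts added. Over all named members and alternatives, 36 values lost their call, 1 gained one and 251 kept their side. The causes were not tested.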
